A study of Mus musculus with 20 samples.

Results

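This account sets wild-type Th17 cells, grown for 6 days with TGF-beta and hyper-IL-6, against wild-type naive CD4 T cells, gene by gene. Its members are 4 libraries of the 20 in the series, chosen by their source names, 2 of the cultured cells and 2 of the naive cells. Th17 cells are the CD4 helper T cells that make IL-17, and naive cells are those that have not yet met antigen. Hyper-IL-6 joins IL-6 and the soluble form of its receptor in 1 protein, which can signal through gp130 on cells that lack the receptor. Both groups came from C57BL/6 mice whose genotype label reads IL-17F/Thy1.1 Hz, a reporter that puts the surface marker Thy1.1 on cells that express Il17f. The Th17 libraries, labelled CD4+ Thy1.1+, were sorted after naive cells had been grown with irradiated antigen-presenting cells, 63 ng/ml of hyper-IL-6 and 2.5 ng/ml of TGF-beta. The labels give a stimulation with PMA and ionomycin for 4 h before the sort for all 10 libraries of the culture experiment, the naive ones included. This text is shared word for word by all of them, so whether the naive cells received the stimulation is uncertain. Genes that such a stimulation induces in T cells went both ways. Il2 had 559 and 564 CPM in Th17 cells, against 0.538 and 0.0847 CPM in naive cells, while Fos had 3.91 and 2.87 CPM in Th17 cells, against 854 and 497 CPM in naive cells. Over the 28 stimulation-induced genes tested, 13 were higher in Th17 cells and 12 lower, against 36.8% and 33.5% of all genes. The labels give neither ages nor sexes, nor whether the libraries of a group came from separate mice. The p-values therefore cover only the spread among these libraries, which may be technical. The other 3 groups of the culture experiment (wild-type cells with IL-6, and Il6ra-deficient Th17 and naive cells) entered the same fit and share its estimate of the spread.

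A naive CD4 T cell is small and quiescent, circulates between blood and lymph nodes, and is held in that state by factors such as KLF2, FOXO1 and TCF1. After antigen contact it grows, copies its DNA and divides. IL-6, which signals through gp130, JAK kinases and STAT3, then acts with TGF-beta to induce Il17a, Il17f and other Th17 genes. IRF4 and BATF open many of the sites where these factors act. Since the naive cells are the starting cells of the culture, the comparison holds many parts together. These are activation, growth, 6 days of culture, the cytokines, the sort of Th17 cells for Thy1.1 and any difference in stimulation, and they cannot be told apart.

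The Th17 libraries held 41184982 and 36836117 gene counts and the naive libraries 21299136 and 24235668. Levels below are CPM, counts scaled by library size with TMM factors, given in library order, and changes are log2 fold changes of Th17 over naive cells ± SE from edgeR. Naive library 1 stood apart from naive library 2. Among genes with a mean of at least 4 CPM, 0.123% of 9723 genes differed by more than 2-fold between the Th17 libraries, against 1.53% of 9673 between the naive libraries. Naive library 1 also had more of the stimulation-induced list (13310 against 6468 summed CPM) and of the stress list (4575 against 2667) than naive library 2, and results resting on these genes are given with that in view. Transcripts that define CD4 T cells were present in both groups, with 390.0 and 403 CPM in Th17 cells, against 810.4 and 1016 CPM in naive cells for Cd4 and 169 and 172 CPM in Th17 cells, against 475 and 451 CPM in naive cells for Cd3e. Of 16 T cell identity genes tested, 12 were lower and 2 higher in Th17 cells, against 33.5% and 36.8% of all genes. With a 2-fold minimum 8 were lower and 0 higher. The 2 higher genes were the kinase gene Zap70 and the co-receptor gene Cd28.

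Of 14926 genes tested, 10489 changed with an edgeR adjusted p under 0.05, which is 70.3%. They were 5495 higher genes (36.8%) and 4994 lower genes (33.5%), and the median log2 change of all genes was 0.0431. The counts of list members below stand against these shares of all genes, and 84.8% of all genes tested had groups that did not overlap. The shares higher and lower and the median depend on the scaling, since TMM takes most genes as unchanged. With library size alone 5860 genes were higher and 4678 lower, and the median was 0.126. CPM are shares of the reads of a library, so a difference in total RNA per cell is not seen. In the TMM fit, a test against a 2-fold minimum left 5330 genes (35.7%), 2805 higher (18.8%) and 2525 lower (16.9%). Changes over 8-fold in the fit were made by 1378 higher and 1095 lower genes. No count in either naive library was found for 447 tested genes, and none in either Th17 library for 174. In both groups Eef1a1, the elongation factor that brings tRNA to the ribosome, took the most reads (7044 and 6809 CPM in Th17 cells, against 10066 and 8718 CPM in naive cells). Among the 10 genes with the most reads in Th17 cells were Ncl, a nucleolar protein (3059.6 and 2825 CPM in Th17 cells, against 529 and 515 CPM in naive cells), and Irf4 (2402 and 2321 CPM in Th17 cells, against 38.9 and 13.7 CPM in naive cells). Among the 10 in naive cells were H2-K1, a class I antigen-presenting chain (533 and 551 CPM in Th17 cells, against 5044 and 4294 CPM in naive cells), and the cytoskeletal linker Macf1 (309 and 325 CPM in Th17 cells, against 3166 and 4409.5 CPM in naive cells). Protein-coding genes passed in 74.5% of 12457 cases, long non-coding genes in 51.9% of 1193.

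**Figure D1:**
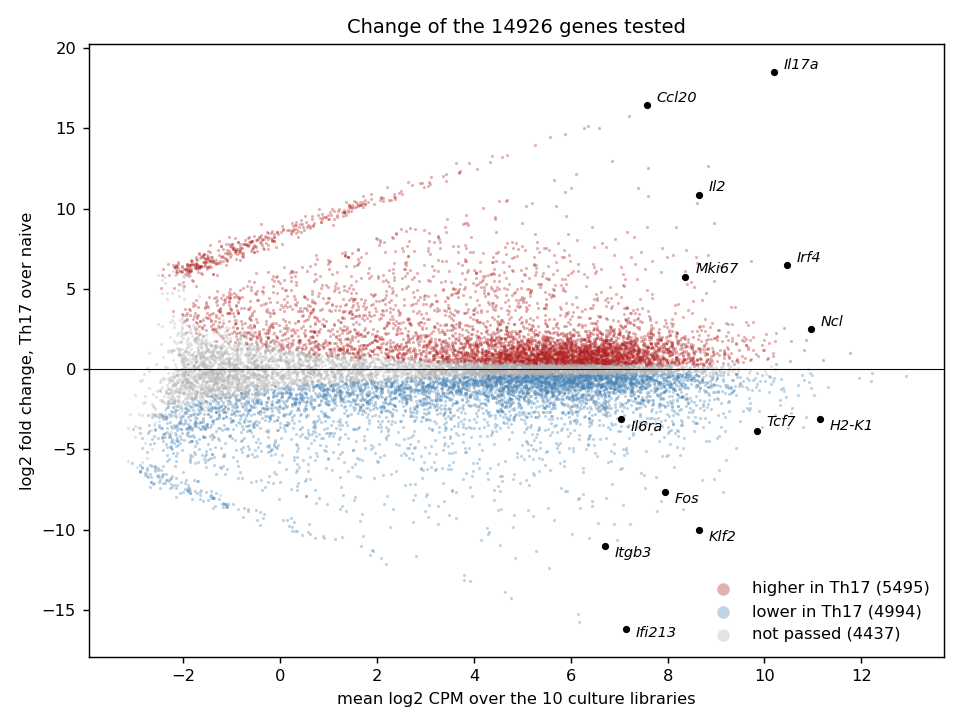
Each point is 1 of 14926 genes, with its mean log2 CPM over the 10 culture libraries on the x axis and the log2 fold change of Th17 over naive cells on the y axis. Red genes were higher (5495) and blue genes lower (4994) in Th17 cells; the outer bands are genes with no count in one group, whose fitted change is not a bound.

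All 9 Th17 cytokine genes tested were higher in Th17 cells, against 36.8% of all genes. Il17a, the defining cytokine, had 1399.6 and 1508 CPM in Th17 cells, against 0 and 0 CPM in naive cells, so that it was at least 21306-fold higher (3 counts over the group as the floor; edgeR adjusted p = 6.21e-09). Il17f, its close relative, had 588 and 640.1 CPM in Th17 cells, against 0.0977 and 0.0847 CPM in naive cells. Both genes were absent or nearly absent in the naive libraries and high in both Th17 libraries, but the Th17 cells were sorted on a reporter of Il17f. The part of that sort in the levels of Il17f and the other Th17 genes was not tested. Il21, the cytokine that acts back on T cells, had 408 and 381 CPM in Th17 cells, against 1.22 and 0.551 CPM in naive cells (log2 change 8.83 ± 0.33). Ccl20, the ligand of CCR6, had 353 and 335 CPM in Th17 cells, against 0 and 0 CPM in naive cells and was at least 5055-fold higher. Per kilobase of exon, Il17a averaged 1242 RPKM in Th17 cells, Il17f 304, Ccl20 242 and Il21 75.04. Other Th17-associated cytokines passed at far lower levels. Il10, an inhibitory cytokine, had 13.03 and 11.0 CPM in Th17 cells, against 0.196 and 0.0424 CPM in naive cells. Csf2, which encodes GM-CSF, had 2.76 and 4.16 CPM in Th17 cells, against 0.196 and 0.0424 CPM in naive cells. Il22, a cytokine that acts on epithelium, had 0.453 and 1.32 CPM in Th17 cells, against 0 and 0 CPM in naive cells. Il9 had 0.762 and 1.11 CPM in Th17 cells, against 0 and 0 CPM in naive cells. The median log2 change of the 9 genes was 7.92, or 6.67 with the 5 genes that had no naive count set at their bound.

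Il17a and Il17f are neighbours on chromosome 1, and their promoters are shown because both hold AGGTCA, the core that the nuclear receptor RORA binds, in the window from 250 bases before to 50 after the RefSeq start (GRCm38.p6). Capitals mark the match, on either strand.
Il17a: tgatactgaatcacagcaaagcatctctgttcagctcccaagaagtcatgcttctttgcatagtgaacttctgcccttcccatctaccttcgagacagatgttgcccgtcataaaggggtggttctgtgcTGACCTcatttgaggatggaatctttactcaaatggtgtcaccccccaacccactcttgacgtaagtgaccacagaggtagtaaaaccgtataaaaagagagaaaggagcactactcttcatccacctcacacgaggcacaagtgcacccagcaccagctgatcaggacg
Il17f: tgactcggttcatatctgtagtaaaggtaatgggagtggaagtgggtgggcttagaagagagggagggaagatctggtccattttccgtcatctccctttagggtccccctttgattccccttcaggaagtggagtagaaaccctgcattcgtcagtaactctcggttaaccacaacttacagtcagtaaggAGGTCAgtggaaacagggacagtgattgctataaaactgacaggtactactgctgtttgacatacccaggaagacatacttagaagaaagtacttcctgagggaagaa
The first window is chr1:20730655-20730954 on the plus strand and the second chr1:20784221-20784520 on the minus strand. The match begins 120 bases before the start in Il17a and 58 before in Il17f. AGGTCA occurred in the windows of 3 of the 7 Th17 cytokine genes with a promoter in the table (Il17a, Il17f and Ccl20), and in 16.3% of all 32851 windows. A match is a stretch of letters and not a measured binding site.

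Of 16 Th17 transcription factor genes, 11 rose and 5 fell, against 36.8% and 33.5% of all genes. Rora, the gene of that nuclear receptor, had 343 and 319 CPM in Th17 cells, against 14.4 and 16.1 CPM in naive cells (4.44 ± 0.14, edgeR adjusted p = 1.25e-09). Irf4, a factor switched on by T cell receptor signals, rose by 6.50 ± 0.48 on the log2 scale, with the CPM given above. Its partner Batf had 69.5 and 67.2 CPM in Th17 cells, against 48.6 and 20.97 CPM in naive cells and the smallest rise of the list (0.98 ± 0.30), with an adjusted p of 0.0539 where edgeR was fitted on the compared groups only. Bhlhe40, a repressor that holds Il10 down in helper T cells, had 697 and 715 CPM in Th17 cells, against 6.30 and 4.19 CPM in naive cells (7.08 ± 0.16). Ahr, a sensor of dietary and microbial ligands, had 51.4 and 61.3 CPM in Th17 cells, against 1.76 and 2.29 CPM in naive cells. Maf, an activator of Il10 and Il21, had 236 and 246 CPM in Th17 cells, against 28.4 and 16.8 CPM in naive cells. Hif1a, the oxygen-sensing factor, had 899 and 889 CPM in Th17 cells, against 133 and 119 CPM in naive cells. The vitamin D receptor gene Vdr (6.20 ± 0.47), Fosl2 (2.52 ± 0.28) and Etv6 (2.24 ± 0.18) also rose. The genes that fell were Stat3 itself (209 and 209 CPM in Th17 cells, against 471 and 309.5 CPM in naive cells, -0.90 ± 0.17), Nfkbiz, which encodes the nuclear NF-kB cofactor IkappaBzeta (33.3 and 32.4 CPM in Th17 cells, against 336 and 123 CPM in naive cells), Prdm1, the gene of Blimp-1 (0.596 and 0.869 CPM in Th17 cells, against 8.26 and 12.4 CPM in naive cells), Ikzf3 (-0.56 ± 0.19) and Runx1 (-0.31 ± 0.10). Runx1 lost its call without naive library 1 and Ikzf3 without naive library 2, and each lost it without either Th17 library. Nfkbiz differed by more than 2-fold between the naive libraries, and the lower of these was still above both Th17 libraries.

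Of 12 receptor and surface genes of Th17 cells 10 were higher and 2 lower, against 36.8% and 33.5% of all genes. The list holds 5 cytokine receptor genes, of which 3 were higher and 2 lower. Il23r, the IL-23 receptor chain that sustains Th17 cells, had 13.1 and 11.3 CPM in Th17 cells, against 0 and 0.212 CPM in naive cells (6.71 ± 0.66). Il1r1, the IL-1 receptor, had 134 and 119.8 CPM in Th17 cells, against 0.391 and 0.170 CPM in naive cells (8.84 ± 0.27). Il12rb1, the chain shared by the IL-12 and IL-23 receptors, had 165 and 202 CPM in Th17 cells, against 6.79 and 7.54 CPM in naive cells. Ccr6, the Th17 homing receptor, had 29.6 and 32.5 CPM in Th17 cells, against 0.929 and 1.19 CPM in naive cells, and the activation marker Cd44 556 and 533 CPM in Th17 cells, against 41.2 and 42.7 CPM in naive cells. The lower genes were the IL-18 receptor chain Il18r1 (9.36 and 10.9 CPM in Th17 cells, against 72.4 and 88.1 CPM in naive cells) and Il21r (128 and 135 CPM in Th17 cells, against 326 and 271 CPM in naive cells), so Il21 and its receptor gene moved in opposite directions.

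**Figure D2:**
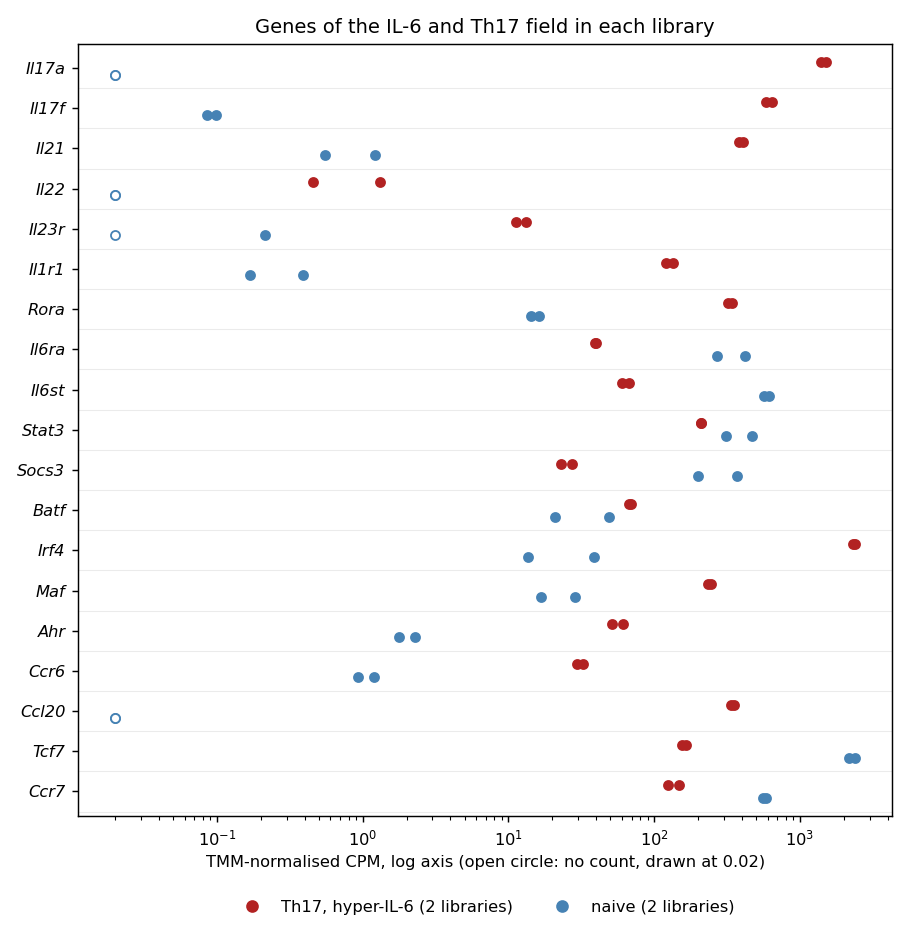
CPM on a log axis for 19 genes known from Th17 cells and IL-6 signalling, with 1 point per library, red for Th17 and blue for naive cells, and open circles for libraries with no count. The groups overlap for none of the 19 genes, as for 84.8% of all genes tested; Il6ra, Il6st, Stat3, Socs3, Tcf7 and Ccr7 lie lower in Th17 cells and the other 13 higher.

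Both chains of the IL-6 receptor were lower in Th17 cells. Il6ra, the receptor's alpha chain, had 39.8 and 39.2 CPM in Th17 cells, against 270.2 and 421 CPM in naive cells (-3.13 ± 0.19, edgeR adjusted p = 7.89e-08). Il6st, which encodes gp130, had 67.4 and 60.3 CPM in Th17 cells, against 566 and 610.2 CPM in naive cells (-3.20 ± 0.16). The groups did not overlap for either gene, as for 84.8% of all genes, and the naive libraries lay further apart for Il6ra than for Il6st. The kinase genes split, since Jak1 had 268 and 266 CPM in Th17 cells, against 1059.5 and 1181 CPM in naive cells and Jak2 had 922 and 853 CPM in Th17 cells, against 178 and 179 CPM in naive cells. Il27ra, the receptor of another gp130 cytokine, had 90.9 and 86.3 CPM in Th17 cells, against 389 and 412 CPM in naive cells. Socs3, the STAT3-induced inhibitor of gp130, had 22.8 and 27.5 CPM in Th17 cells, against 369 and 199 CPM in naive cells (-3.50 ± 0.24). In contrast, the STAT5 targets Socs2 and Cish had 103 and 119.6 CPM in Th17 cells, against 0.880 and 0.890 CPM in naive cells (Socs2) and 314 and 331 CPM in Th17 cells, against 26.5 and 26.7 CPM in naive cells (Cish). Adam10, a protease that sheds surface receptors, had 236 and 252 CPM in Th17 cells, against 118 and 140.2 CPM in naive cells. Adam17, the sheddase of the IL-6 receptor, had 125 and 121 CPM in Th17 cells, against 98.7 and 97.2 CPM in naive cells. Over the list, 7 of 18 tested genes were higher and 9 lower, against 36.8% and 33.5% of all genes. Bcl3 was among the lower genes (45.8 and 47.2 CPM in Th17 cells, against 145 and 42.6 CPM in naive cells), but it rests on naive library 1, without which its change was 0.15 and did not pass.

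Of 21 genes of the TGF-beta pathway, 10 were higher, 8 lower and 3 did not pass, near the shares of all genes (36.8% and 33.5%). The higher count was 8 without naive library 1 and 7 without naive library 2. Tgfb1, the cytokine's own gene, had 379.8 and 370.4 CPM in Th17 cells, against 170.1 and 171 CPM in naive cells. Furin, the protease that cuts its precursor, had 1038 and 1078 CPM in Th17 cells, against 64.9 and 77.7 CPM in naive cells (3.89 ± 0.15). Pmepa1, a TGF-beta target that restrains the pathway, had 132 and 149.7 CPM in Th17 cells, against 17.8 and 12.9 CPM in naive cells (3.20 ± 0.17). The receptor genes diverged. Tgfbr1 had 174 and 179.5 CPM in Th17 cells, against 47.0 and 58.4 CPM in naive cells, while Tgfbr2, which binds the ligand first, had 104 and 103 CPM in Th17 cells, against 598 and 589.9 CPM in naive cells (-2.52 ± 0.11) and Tgfbr3 had 22.9 and 28.7 CPM in Th17 cells, against 114 and 166 CPM in naive cells. Smad7, the feedback inhibitor, was lower, with 45.6 and 46.3 CPM in Th17 cells, against 431 and 329.8 CPM in naive cells (-3.05 ± 0.15). Itgae, the integrin chain CD103 that TGF-beta induces in other T cells, stayed low in both groups, with 1.93 and 1.48 CPM in Th17 cells, against 2.10 and 1.69 CPM in naive cells (edgeR adjusted p = 0.786).

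Lists of the other helper lineages stand against 36.8% of all genes higher and 33.5% lower, and the Th2 and follicular helper lists lie nearest to that. Of 16 Th1 genes 11 were higher and 2 lower. Tbx21, the Th1 lineage factor, had 7.81 and 19.9 CPM in Th17 cells, against 2.25 and 3.35 CPM in naive cells. Ifng had 6.67 and 20.97 CPM in Th17 cells, against 2.20 and 1.65 CPM in naive cells, with the second Th17 library above the first in both cases. Stat4, which carries the IL-12 signal, was lower (29.6 and 33.2 CPM in Th17 cells, against 104 and 99.4 CPM in naive cells), whereas Tnf (134 and 151 CPM in Th17 cells, against 24.0 and 28.3 CPM in naive cells) and Ccl4 (49.6 and 60.4 CPM in Th17 cells, against 0.0977 and 0.339 CPM in naive cells) were higher. Of 8 Th2 genes 4 were higher and 2 lower. Gata3, the Th2 lineage factor, had 4.74 and 5.82 CPM in Th17 cells, against 85.4 and 85.1 CPM in naive cells (-4.01 ± 0.18), and the homing receptor Ccr4 went the other way, with 169.6 and 177 CPM in Th17 cells, against 2.25 and 2.71 CPM in naive cells (6.12 ± 0.14). Of 16 regulatory T cell genes 10 were higher and 4 lower. Foxp3, the factor that defines that lineage, was low in both groups and lower in Th17 cells (5.86 and 5.51 CPM in Th17 cells, against 18.5 and 23.7 CPM in naive cells), as was Ikzf2 (2.43 and 1.79 CPM in Th17 cells, against 16.2 and 22.8 CPM in naive cells). The higher genes of that list included activation-induced receptors such as Il2ra (1437 and 1423 CPM in Th17 cells, against 14.3 and 13.1 CPM in naive cells), Tnfrsf4 (587 and 577 CPM in Th17 cells, against 16.7 and 17.5 CPM in naive cells) and Ctla4 (204 and 229 CPM in Th17 cells, against 50.6 and 18.6 CPM in naive cells), and the actin-capping gene Capg (714 and 711 CPM in Th17 cells, against 35.1 and 37.8 CPM in naive cells). Of 11 follicular helper genes 5 were higher and 4 lower. Pdcd1, the inhibitory receptor PD-1, had 188 and 192 CPM in Th17 cells, against 7.09 and 4.11 CPM in naive cells, Pou2af1, a transcriptional cofactor best known from B cells, 296 and 263 CPM in Th17 cells, against 11.0 and 16.2 CPM in naive cells. Bcl6, the lineage factor, had 29.7 and 27.0 CPM in Th17 cells, against 41.2 and 23.0 CPM in naive cells (edgeR adjusted p = 0.469). The direction of Bcl6 turned with the naive library left out, at 0.32 without library 1 and -0.53 without library 2.

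Genes that mark the naive state fell, with 25 of 29 naive and quiescence genes lower, 2 higher and 2 that did not pass, against 33.5% of all genes lower. Klf2, the factor that keeps T cells quiescent and recirculating, had 0.929 and 0.896 CPM in Th17 cells, against 1078 and 838 CPM in naive cells (-10.03 ± 0.18, edgeR adjusted p = 1.26e-10). S1pr1, the receptor for exit from lymph nodes and a known target of KLF2, had 9.96 and 9.14 CPM in Th17 cells, against 665 and 618 CPM in naive cells. Klf3 had 0.548 and 0.632 CPM in Th17 cells, against 149.6 and 209 CPM in naive cells and Dapl1, a gene of naive T cells, 0.0953 and 0 CPM in Th17 cells, against 46.8 and 56.6 CPM in naive cells. Tcf7, which encodes TCF1, had 165 and 156 CPM in Th17 cells, against 2390.2 and 2154 CPM in naive cells (-3.82 ± 0.16). Lef1 had 43.3 and 46.0 CPM in Th17 cells, against 574 and 659 CPM in naive cells. Ccr7 (125 and 147 CPM in Th17 cells, against 589 and 562 CPM in naive cells) and Il7r, the survival receptor for IL-7 (69.3 and 69.3 CPM in Th17 cells, against 670.1 and 661 CPM in naive cells), fell too. The exceptions were Bach2, a repressor of effector genes (1046 and 1013 CPM in Th17 cells, against 184 and 279.6 CPM in naive cells, 2.15 ± 0.20), and Slfn2, a quiescence gene of the Schlafen family (782 and 760.2 CPM in Th17 cells, against 412 and 368 CPM in naive cells, 0.98 ± 0.14). Foxp1 (0.12 ± 0.13) and Tsc1 (-0.29 ± 0.16) did not pass, with edgeR adjusted p of 0.414 and 0.134. Tsc1 passed as lower without naive library 1.

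Of 18 chemokine receptor and integrin genes 13 were lower and 4 higher, against 33.5% and 36.8% of all genes. Itgb3, the integrin beta3 chain, had 0.119 and 0.105 CPM in Th17 cells, against 205 and 272 CPM in naive cells (-11.00 ± 0.23). Itga4 and Itgb7, which together form the gut-homing integrin, had 23.6 and 20.5 CPM in Th17 cells, against 411 and 727 CPM in naive cells (Itga4) and 46.2 and 46.4 CPM in Th17 cells, against 1079 and 1023 CPM in naive cells (Itgb7). The higher genes were Itgb1 (371 and 370.3 CPM in Th17 cells, against 53.2 and 66.2 CPM in naive cells), Itgav (264 and 252 CPM in Th17 cells, against 36.9 and 40.1 CPM in naive cells), the large-intestine homing receptor Gpr15 (28.8 and 27.8 CPM in Th17 cells, against 0.391 and 0.424 CPM in naive cells) and Ccr1 (2.02 and 0.685 CPM in Th17 cells, against 0.196 and 0.0424 CPM in naive cells). Ccr1 lost its call without naive library 2 and without Th17 library 1. Itgav, a partner of the beta3 chain, and Itgb3 thus moved in opposite directions. Among chemokine genes, 5 of 7 were higher and none was lower. Xcl1, a ligand for cross-presenting dendritic cells, had 89.5 and 85.3 CPM in Th17 cells, against 0.684 and 0.339 CPM in naive cells.

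The stimulation-induced genes moved in both directions. Of 28 tested, 13 were higher, 12 lower and 3 did not pass, against 36.8% of all genes higher and 33.5% lower. Among the lower genes, Fos, an immediate-early AP-1 subunit, had 3.91 and 2.87 CPM in Th17 cells, against 854 and 497 CPM in naive cells (-7.63 ± 0.42, edgeR adjusted p = 4.2e-08), Fosb 5.38 and 3.95 CPM in Th17 cells, against 214 and 64.0 CPM in naive cells. Junb had 486 and 481 CPM in Th17 cells, against 4343 and 2114 CPM in naive cells. Dusp1, a phosphatase that shuts off MAP kinases, had 34.4 and 27.4 CPM in Th17 cells, against 508 and 231 CPM in naive cells. Tnfaip3, the NF-kB brake A20, had 227 and 222 CPM in Th17 cells, against 1273 and 368 CPM in naive cells. In each of these 5 genes naive library 1 was higher than naive library 2, and naive library 2 was still above both Th17 libraries. Among the higher genes, Il2, the T cell growth factor, had 559 and 564 CPM in Th17 cells, against 0.538 and 0.0847 CPM in naive cells (10.87 ± 0.74). Tnfsf11, which encodes RANKL, had 355 and 407 CPM in Th17 cells, against 6.26 and 5.08 CPM in naive cells. Lif, another gp130 cytokine, had 132 and 144 CPM in Th17 cells, against 1.71 and 0.381 CPM in naive cells, the feedback inhibitor Spry1 651 and 619 CPM in Th17 cells, against 8.21 and 4.66 CPM in naive cells and Fosl1, an AP-1 subunit, 47.2 and 44.2 CPM in Th17 cells, against 0.342 and 0.0424 CPM in naive cells. The EGR and NR4A genes were themselves split. Egr1 (43.8 and 39.5 CPM in Th17 cells, against 205 and 158 CPM in naive cells), Egr3 (4.05 and 4.85 CPM in Th17 cells, against 17.6 and 24.7 CPM in naive cells) and Nr4a1 (85.3 and 92.7 CPM in Th17 cells, against 247 and 117 CPM in naive cells) were lower, and Egr2 (70.8 and 65.7 CPM in Th17 cells, against 19.1 and 13.4 CPM in naive cells), Nr4a2 (28.3 and 36.8 CPM in Th17 cells, against 9.68 and 2.84 CPM in naive cells) and Nr4a3 (239.9 and 249.5 CPM in Th17 cells, against 28.6 and 25.9 CPM in naive cells) higher. Nr4a1 and Tnfaip3 lost their calls without naive library 1, with changes of -0.38 and -0.69. Without that library the list counted 15 higher and 10 lower genes. The labels give both groups the same stimulation text, and it cannot be told from them whether the naive cells were in fact stimulated. The part that stimulation or handling has in these levels was not tested.

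**Figure D3:**
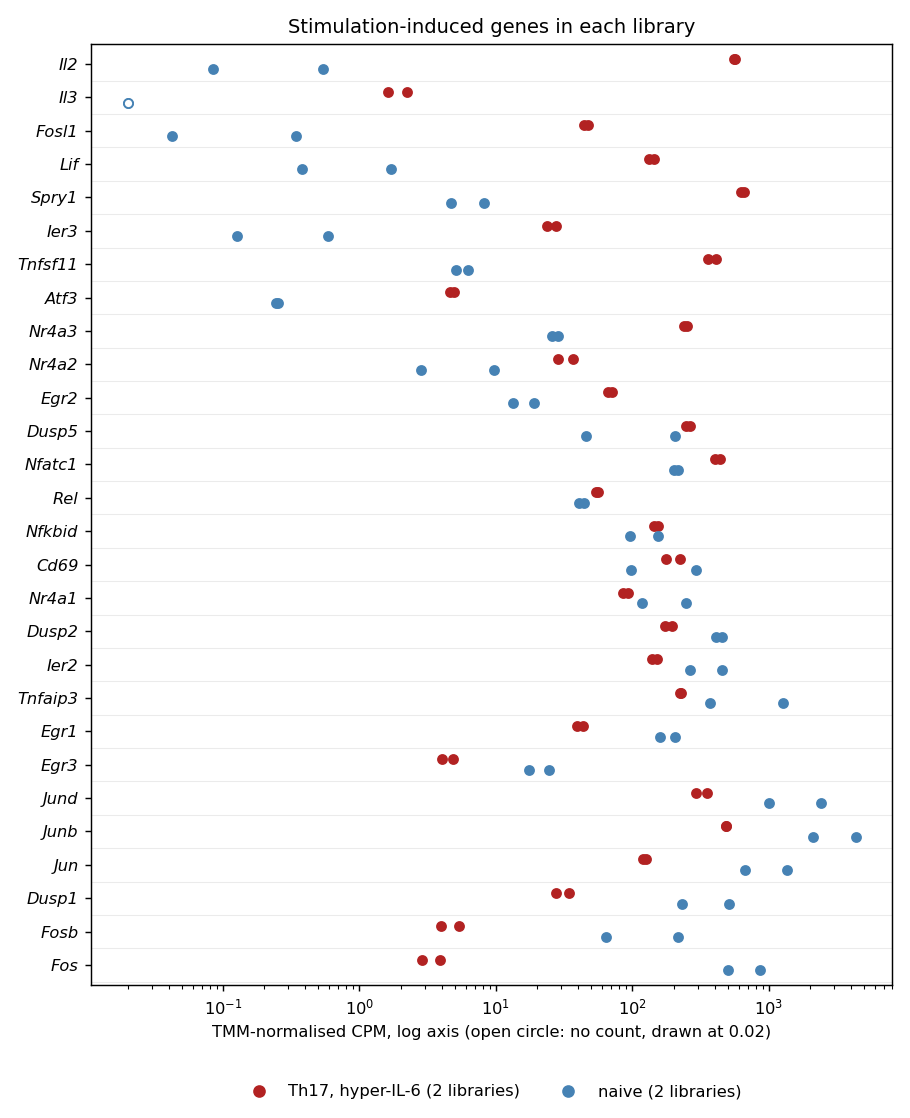
CPM on a log axis for the 28 stimulation-induced genes, ordered from the highest log2 change of Th17 over naive cells at the top to the lowest at the bottom, with 1 point per library and open circles for libraries with no count. Il2 stands at the top with 559 and 564 CPM in Th17 cells, and Fos at the bottom; the naive points lie further apart than the Th17 points for most of the lower genes.

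Regulators of these signals moved in both directions. Of 12 NF-kB genes 8 were higher and 2 lower, against 36.8% and 33.5% of all genes. Nfkb1 had 2088 and 2053 CPM in Th17 cells, against 380.1 and 321 CPM in naive cells and Nfkb2 712 and 752 CPM in Th17 cells, against 115 and 85.8 CPM in naive cells, while Cyld, a deubiquitinase that restrains the pathway, was lower (78.7 and 81.2 CPM in Th17 cells, against 238 and 274 CPM in naive cells). Among 8 RNA-decay factors, 3 were lower, 1 was higher and 4 did not pass, against 33.5% of all genes lower and 36.8% higher. Zfp36, which degrades cytokine mRNAs, had 29.8 and 27.5 CPM in Th17 cells, against 693 and 564 CPM in naive cells (-4.46 ± 0.14), and its relatives Zfp36l2 (-2.63 ± 0.12) and Zfp36l1 (-0.99 ± 0.12) fell too. Zc3h12a, which encodes Regnase-1, did not pass (51.3 and 52.4 CPM in Th17 cells, against 89.1 and 51.4 CPM in naive cells, edgeR adjusted p = 0.125), though it was called lower without naive library 2. Of 9 inhibitory receptor genes 5 were higher and 2 lower, against 36.8% and 33.5% of all genes. The higher ones included Lag3 (256 and 255 CPM in Th17 cells, against 4.11 and 2.84 CPM in naive cells) and Cd200 (513 and 536 CPM in Th17 cells, against 13.5 and 10.7 CPM in naive cells). The lower ones were Cd200r1 (-3.06 ± 0.21) and Lair1 (-4.88 ± 0.53). Of 11 genes of the common gamma chain receptors 4 were higher and 6 lower, against 36.8% and 33.5% of all genes. Il2ra, the high-affinity IL-2 receptor chain, rose by 6.71 ± 0.15 on the log2 scale, Il2rb had 553 and 596 CPM in Th17 cells, against 47.8 and 54.2 CPM in naive cells and Stat5a 592 and 597 CPM in Th17 cells, against 105 and 116 CPM in naive cells, while Il4ra had 209 and 206 CPM in Th17 cells, against 547 and 411 CPM in naive cells and the shared chain Il2rg 229 and 220.1 CPM in Th17 cells, against 334 and 295 CPM in naive cells.

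Of 22 interferon-stimulated genes 21 were lower and none higher, against 33.5% of all genes lower. Gbp2 did not pass (edgeR adjusted p = 0.649). Irf7, the amplifier of the interferon response, had 0.548 and 0.580 CPM in Th17 cells, against 114 and 106 CPM in naive cells (-7.60 ± 0.15). Usp18, the interferon receptor's feedback inhibitor, had 0 and 0.0527 CPM in Th17 cells, against 36.7 and 33.6 CPM in naive cells. Oas1a, a sensor of double-stranded RNA, had 0 and 0 CPM in Th17 cells, against 11.1 and 7.75 CPM in naive cells and was at least 248-fold lower, and Ifit1, which binds viral RNA, had 0.214 and 0.527 CPM in Th17 cells, against 29.6 and 34.3 CPM in naive cells. Stat2 (29.3 and 38.4 CPM in Th17 cells, against 114 and 97.4 CPM in naive cells) and Irf9 (29.6 and 37.7 CPM in Th17 cells, against 178 and 152 CPM in naive cells), parts of the factor that drives these genes, were lower by less. The list's median log2 change was -4.52, and the count was 21 without either naive library.

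The HIN-200 genes, a cluster of DNA-sensing genes on chromosome 1 of which 4 are among the 12 largest fitted decreases, were taken as a whole family after those values were seen. Of its 10 tested members 8 were lower, against 33.5% of all genes. Ifi213 had 0 and 0 CPM in Th17 cells, against 279.7 and 295 CPM in naive cells and was at least 7672-fold lower. Ifi208 had 0 and 0 CPM in Th17 cells, against 223 and 203 CPM in naive cells (at least 5663-fold), Ifi206 0 and 0 CPM in Th17 cells, against 152 and 147 CPM in naive cells (at least 3979.8-fold) and Ifi214 0 and 0 CPM in Th17 cells, against 34.6 and 39.2 CPM in naive cells (at least 988-fold). Aim2, the inflammasome sensor, fell least of the 8, with 13.1 and 14.8 CPM in Th17 cells, against 30.9 and 40.6 CPM in naive cells. Members of this family resemble each other closely, so the split of reads between them is uncertain, but their summed level was 48.1 and 48.0 CPM in Th17 cells, against 1583 and 1582 CPM in naive cells.

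The promoters of Ifi208 and Ifit1 are shown as members of the 2 groups that fell together. Capitals mark the core of the interferon-stimulated response element, which is GAAA, then any 2 bases, then GAAA, on either strand.
Ifi208: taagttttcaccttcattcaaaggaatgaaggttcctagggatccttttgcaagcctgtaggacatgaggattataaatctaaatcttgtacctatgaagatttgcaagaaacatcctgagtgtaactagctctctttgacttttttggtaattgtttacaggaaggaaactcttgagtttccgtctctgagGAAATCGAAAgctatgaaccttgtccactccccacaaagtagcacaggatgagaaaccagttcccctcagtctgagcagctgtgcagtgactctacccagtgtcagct
Ifit1: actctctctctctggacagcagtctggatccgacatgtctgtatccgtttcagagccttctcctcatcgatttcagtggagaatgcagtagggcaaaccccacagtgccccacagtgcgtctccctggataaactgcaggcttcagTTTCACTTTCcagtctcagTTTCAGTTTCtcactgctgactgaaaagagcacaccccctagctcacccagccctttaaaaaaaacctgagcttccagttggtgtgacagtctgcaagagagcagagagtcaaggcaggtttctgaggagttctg
The windows are chr1:173673415-173673714 and chr19:34640639-34640938, both on the plus strand of GRCm38.p6. The element was found in the windows of 12 of 20 interferon-stimulated genes (60%) and 7 of 10 HIN-200 genes (70%) that had a promoter in the table, against 3.44% of all windows. The matching HIN-200 genes include Ifi211, which did not pass (0.191 and 0.764 CPM in Th17 cells, against 0.244 and 0.0847 CPM in naive cells).

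Class I antigen presentation genes, also grouped after their values were seen, fell as well. All 12 tested heavy chain genes and 8 of 9 genes of the presentation machinery were lower, against 33.5% of all genes. Erap1, which trims peptides, was higher (170.3 and 159 CPM in Th17 cells, against 130.4 and 139.7 CPM in naive cells). The call of Erap1 was lost without naive library 1 or Th17 library 1. B2m, the light chain, had 244 and 257 CPM in Th17 cells, against 1809 and 1284 CPM in naive cells (-2.63 ± 0.15). H2-K1 changed by -3.11 ± 0.11 on the log2 scale, H2-D1 had 391 and 390.2 CPM in Th17 cells, against 3247 and 2409 CPM in naive cells and the non-classical gene H2-Q7 14.8 and 14.4 CPM in Th17 cells, against 1168 and 1057 CPM in naive cells. Nlrc5, the transactivator of this group, had 28.9 and 44.5 CPM in Th17 cells, against 501 and 539 CPM in naive cells (-3.82 ± 0.20), and the peptide transporter gene Tap1 101 and 141 CPM in Th17 cells, against 579.5 and 594 CPM in naive cells. Reads of the H2 genes can be shared between near-identical copies, so single members are uncertain.

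Growth genes rose together, and the counts here stand against 36.8% of all genes higher and 33.5% lower. All 20 ribosome biogenesis genes were higher, 19 of them past 2-fold, with a median log2 change of 1.89. Myc, which drives that programme, had 827 and 821 CPM in Th17 cells, against 169 and 137 CPM in naive cells (2.43 ± 0.12), the RNA helicase gene Ddx21 1124 and 1067 CPM in Th17 cells, against 289.7 and 305 CPM in naive cells. Nop2, an rRNA methyltransferase, had 393 and 368 CPM in Th17 cells, against 70.9 and 70.6 CPM in naive cells. Ubtf, a factor of RNA polymerase I, rose least (481 and 494 CPM in Th17 cells, against 318 and 289.9 CPM in naive cells). Of 23 genes of serine, one-carbon and nucleotide synthesis 21 were higher and none lower. Rrm2, a subunit of the enzyme that makes deoxynucleotides, had 141 and 172 CPM in Th17 cells, against 5.87 and 5.21 CPM in naive cells, Shmt1 171 and 165 CPM in Th17 cells, against 8.65 and 8.26 CPM in naive cells and Cad, the entry enzyme of pyrimidine synthesis, 719.8 and 697 CPM in Th17 cells, against 105 and 129 CPM in naive cells. Amino acid transporter and polyamine genes were higher in 17 of 18 cases, among them the leucine transporter chain Slc7a5 (500.1 and 489.5 CPM in Th17 cells, against 47.4 and 55.0 CPM in naive cells) and the polyamine enzyme Srm (420.3 and 415 CPM in Th17 cells, against 48.7 and 47.6 CPM in naive cells), while Slc38a2 was lower (299.9 and 299.6 CPM in Th17 cells, against 516 and 360.2 CPM in naive cells), a call lost without naive library 1 or either Th17 library. Of 19 stress and chaperone genes 15 were higher and 2 lower, including Hspa5, the chaperone BiP (2554 and 2467 CPM in Th17 cells, against 893 and 505 CPM in naive cells), Atf6 (176 and 171 CPM in Th17 cells, against 10.2 and 12.8 CPM in naive cells) and asparagine synthetase Asns (44.6 and 42.6 CPM in Th17 cells, against 0 and 0.339 CPM in naive cells). Ddit3, the stress factor CHOP, had 17.4 and 16.4 CPM in Th17 cells, against 19.5 and 21.8 CPM in naive cells (edgeR adjusted p = 0.0782), and its target Trib3 was lower (1.67 and 2.06 CPM in Th17 cells, against 4.69 and 6.31 CPM in naive cells). Naive library 1 had more of this list than naive library 2, and without it 16 genes were higher and 1 lower.

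Cell division genes rose together, and the counts here stand against 36.8% of all genes higher and 33.5% lower. Of 22 mitosis genes 21 were higher and 1 lower, with a median log2 change of 5.10, against 0.0431 over all genes. Mki67, the proliferation antigen Ki-67, had 512 and 612 CPM in Th17 cells, against 7.67 and 12.8 CPM in naive cells, the cyclin gene Ccna2 147 and 166 CPM in Th17 cells, against 1.12 and 2.88 CPM in naive cells and Ube2c, which helps cells leave mitosis, 79.3 and 86.1 CPM in Th17 cells, against 0.733 and 0.847 CPM in naive cells (6.70 ± 0.23). The D cyclins moved apart, as Ccnd3 was the 1 lower gene (119.7 and 134 CPM in Th17 cells, against 458 and 301 CPM in naive cells) and Ccnd2 was higher (1484 and 1547 CPM in Th17 cells, against 461 and 536 CPM in naive cells). DNA replication genes were higher in 22 of 23 cases. Uhrf1, which keeps DNA methylation through replication, had 210.0 and 241 CPM in Th17 cells, against 6.06 and 5.93 CPM in naive cells, Ccne2 28.6 and 30.1 CPM in Th17 cells, against 0.929 and 0.593 CPM in naive cells and Cdc6, a loader of the replicative helicase, 42.7 and 54.3 CPM in Th17 cells, against 2.00 and 1.10 CPM in naive cells. Cdt1, its partner, did not pass (84.3 and 93.4 CPM in Th17 cells, against 82.5 and 68.8 CPM in naive cells, edgeR adjusted p = 0.141), though it did without naive library 1. Of 10 inhibitors of the cycle 4 were higher and 6 lower, against 36.8% and 33.5% of all genes. Cdkn1a, the p21 gene, had 72.5 and 87.8 CPM in Th17 cells, against 0.880 and 0.0424 CPM in naive cells. Cdkn1b, the p27 gene of resting cells, had 51.5 and 49.5 CPM in Th17 cells, against 371 and 326 CPM in naive cells (-2.79 ± 0.12).

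The promoter of Mcm5, a subunit of the replicative helicase with 299.7 and 331 CPM in Th17 cells, against 57.3 and 47.6 CPM in naive cells, is shown as an example of that group, with the E2F core TTTNGCGC in capitals. The match on one strand overlaps the match on the other.
Mcm5: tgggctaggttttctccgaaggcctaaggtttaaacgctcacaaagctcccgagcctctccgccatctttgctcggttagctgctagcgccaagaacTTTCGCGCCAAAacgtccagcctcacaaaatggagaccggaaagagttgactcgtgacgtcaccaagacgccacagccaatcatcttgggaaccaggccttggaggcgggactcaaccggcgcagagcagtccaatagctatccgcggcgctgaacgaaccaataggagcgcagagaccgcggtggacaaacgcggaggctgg
This window is chr8:75109259-75109558 on the plus strand of GRCm38.p6. The core was present for 8 of 18 replication genes with a promoter in the table (44.4%), against 1.38% of all windows and 2.73% of the 10364 tested genes with a window.

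Glycolysis genes rose in 15 of 23 cases and fell in 4, against 36.8% and 33.5% of all genes. Hk2, the inducible hexokinase, had 245 and 258 CPM in Th17 cells, against 0.929 and 0.720 CPM in naive cells (8.26 ± 0.33). Hk1, the constitutive one, had 201 and 217 CPM in Th17 cells, against 183 and 196 CPM in naive cells (edgeR adjusted p = 0.225). Tpi1 had 537 and 580.2 CPM in Th17 cells, against 27.6 and 31.6 CPM in naive cells, Pkm 1998 and 1995 CPM in Th17 cells, against 606 and 561 CPM in naive cells. Slc16a3, a lactate exporter, had 124 and 142 CPM in Th17 cells, against 1.76 and 2.42 CPM in naive cells. The glucose transporter genes moved apart, as Slc2a1 (GLUT1) had 134 and 136 CPM in Th17 cells, against 49.2 and 55.0 CPM in naive cells and Slc2a3 (GLUT3) 16.2 and 16.1 CPM in Th17 cells, against 64.0 and 69.9 CPM in naive cells. Pdk1, which encodes an inhibitor of pyruvate dehydrogenase, had 58.6 and 53.9 CPM in Th17 cells, against 579 and 602 CPM in naive cells (-3.39 ± 0.10). Ldhb had 3.53 and 3.19 CPM in Th17 cells, against 24.2 and 19.1 CPM in naive cells. Pdk1 and Ldhb with Slc2a3 and Pfkm (-1.39 ± 0.14) make up the 4 that fell. In the mitochondrion, 14 of 21 nuclear respiratory chain genes were higher and none was lower, against 36.8% and 33.5% of all genes. The higher count was 18 without naive library 1 and 12 without naive library 2. Cycs, the gene of cytochrome c, had 48.9 and 42.5 CPM in Th17 cells, against 15.7 and 11.0 CPM in naive cells. Atp5b had 1328 and 1326 CPM in Th17 cells, against 618 and 564 CPM in naive cells. Mitochondrially encoded genes went the other way, 7 of 11 lower and none higher, against 33.5% and 36.8% of all genes. The 4 that did not pass, mt-Nd3, mt-Co2, mt-Co3 and mt-Atp6, were near the floor in both groups, so their change is poorly measured. For example, mt-Co2 had 0.262 and 0.132 CPM in Th17 cells, against 0.489 and 0.254 CPM in naive cells. Mt-Co1 had 3924 and 3669 CPM in Th17 cells, against 5891 and 6598 CPM in naive cells and mt-Nd5 647 and 659 CPM in Th17 cells, against 1506 and 1958 CPM in naive cells. Of 16 genes of the TCA cycle 7 were higher and 2 lower, against 36.8% and 33.5% of all genes. Idh3a had 141 and 140.0 CPM in Th17 cells, against 41.4 and 44.8 CPM in naive cells. Idh2 had 13.8 and 13.9 CPM in Th17 cells, against 62.9 and 78.2 CPM in naive cells.

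Of 23 genes of cholesterol synthesis and uptake 18 were higher and 3 lower, against 36.8% and 33.5% of all genes. Hmgcs1, an early enzyme of the pathway, had 203 and 213 CPM in Th17 cells, against 48.1 and 56.0 CPM in naive cells. Idi1 had 25.7 and 25.4 CPM in Th17 cells, against 3.57 and 3.01 CPM in naive cells, Sqle, the squalene oxidising enzyme, 178 and 181 CPM in Th17 cells, against 28.4 and 34.2 CPM in naive cells and Cyp51 228 and 227 CPM in Th17 cells, against 26.6 and 36.2 CPM in naive cells. The lower genes were Dhcr7 (24.2 and 26.9 CPM in Th17 cells, against 40.8 and 45.4 CPM in naive cells), Tm7sf2 (8.98 and 10.9 CPM in Th17 cells, against 18.5 and 15.1 CPM in naive cells) and Mvk (11.3 and 13.9 CPM in Th17 cells, against 15.2 and 20.2 CPM in naive cells), by small amounts. The Mvk call was lost without naive library 2 or Th17 library 1. Fatty acid metabolism was mixed, with 7 of 17 genes higher, 3 lower and 7 that did not pass, against 36.8% of all genes higher and 33.5% lower. The synthesis genes Fasn (1033 and 1045 CPM in Th17 cells, against 234 and 367 CPM in naive cells), Acly (1039.9 and 955 CPM in Th17 cells, against 288 and 298 CPM in naive cells) and Acaca (95.9 and 97.5 CPM in Th17 cells, against 15.8 and 27.2 CPM in naive cells) were higher, while Srebf1, Elovl6 and Scd1 did not pass. Cpt1a, which brings fatty acids into mitochondria for oxidation, was lower (45.7 and 49.7 CPM in Th17 cells, against 109 and 78.8 CPM in naive cells), as was Acadm (-0.46 ± 0.11), while the oxidation genes Cpt2, Acadl, Acadvl and Hadha did not pass. The elongase Elovl5 (32.7 and 35.8 CPM in Th17 cells, against 150.0 and 149 CPM in naive cells) was lower too, and Elovl1 (172 and 164 CPM in Th17 cells, against 45.1 and 48.4 CPM in naive cells) higher. The Hmgcs1 promoter is shown with the sterol regulatory element letters TCACNCCAC in capitals.
Hmgcs1: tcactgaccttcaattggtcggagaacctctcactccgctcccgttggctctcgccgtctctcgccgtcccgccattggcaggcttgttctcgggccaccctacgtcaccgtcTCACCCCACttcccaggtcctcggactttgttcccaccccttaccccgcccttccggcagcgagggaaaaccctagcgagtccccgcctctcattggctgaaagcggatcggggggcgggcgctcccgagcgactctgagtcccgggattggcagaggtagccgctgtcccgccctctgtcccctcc
It is chr13:119690101-119690400 on the plus strand of GRCm38.p6. Hmgcs1 was the only 1 of 16 genes of the list with a promoter in the table whose window held these letters on either strand (6.25%), against 1.24% of all windows.

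Of 19 BCL-2 family and death genes 5 were higher and 9 lower, against 36.8% and 33.5% of all genes, so the share called was near that of all genes. Bcl2l1, which encodes Bcl-xL, had 234 and 263 CPM in Th17 cells, against 22.4 and 15.6 CPM in naive cells (3.71 ± 0.15), and the protective genes Bcl2 (85.01 and 90.6 CPM in Th17 cells, against 191 and 235 CPM in naive cells) and Mcl1 (406 and 398 CPM in Th17 cells, against 1034 and 699.8 CPM in naive cells) were lower. The killers Bbc3 (6.84 and 7.61 CPM in Th17 cells, against 71.7 and 33.3 CPM in naive cells) and Bcl2l11 (41.3 and 34.4 CPM in Th17 cells, against 107 and 79.4 CPM in naive cells) were lower, and Pmaip1 (38.1 and 46.7 CPM in Th17 cells, against 3.03 and 0.508 CPM in naive cells) was higher. Among 20 chromatin enzymes 12 were higher and 7 lower, against 36.8% and 33.5% of all genes. Tet1, an enzyme that removes DNA methylation, had 0.0238 and 0.0263 CPM in Th17 cells, against 50.4 and 65.1 CPM in naive cells, and its relative Tet3 was lower by less (160.2 and 170.1 CPM in Th17 cells, against 309 and 419 CPM in naive cells). Tet2 had 69.9 and 74.2 CPM in Th17 cells, against 69.0 and 98.3 CPM in naive cells (edgeR adjusted p = 0.274), and was called lower without naive library 1. The methyltransferase gene Dnmt3a had 368 and 371 CPM in Th17 cells, against 151 and 158 CPM in naive cells, Ezh2 183 and 185 CPM in Th17 cells, against 38.0 and 37.1 CPM in naive cells, and the chromatin remodeller Hells 119.5 and 134 CPM in Th17 cells, against 9.38 and 9.79 CPM in naive cells.

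**Figure D4:**
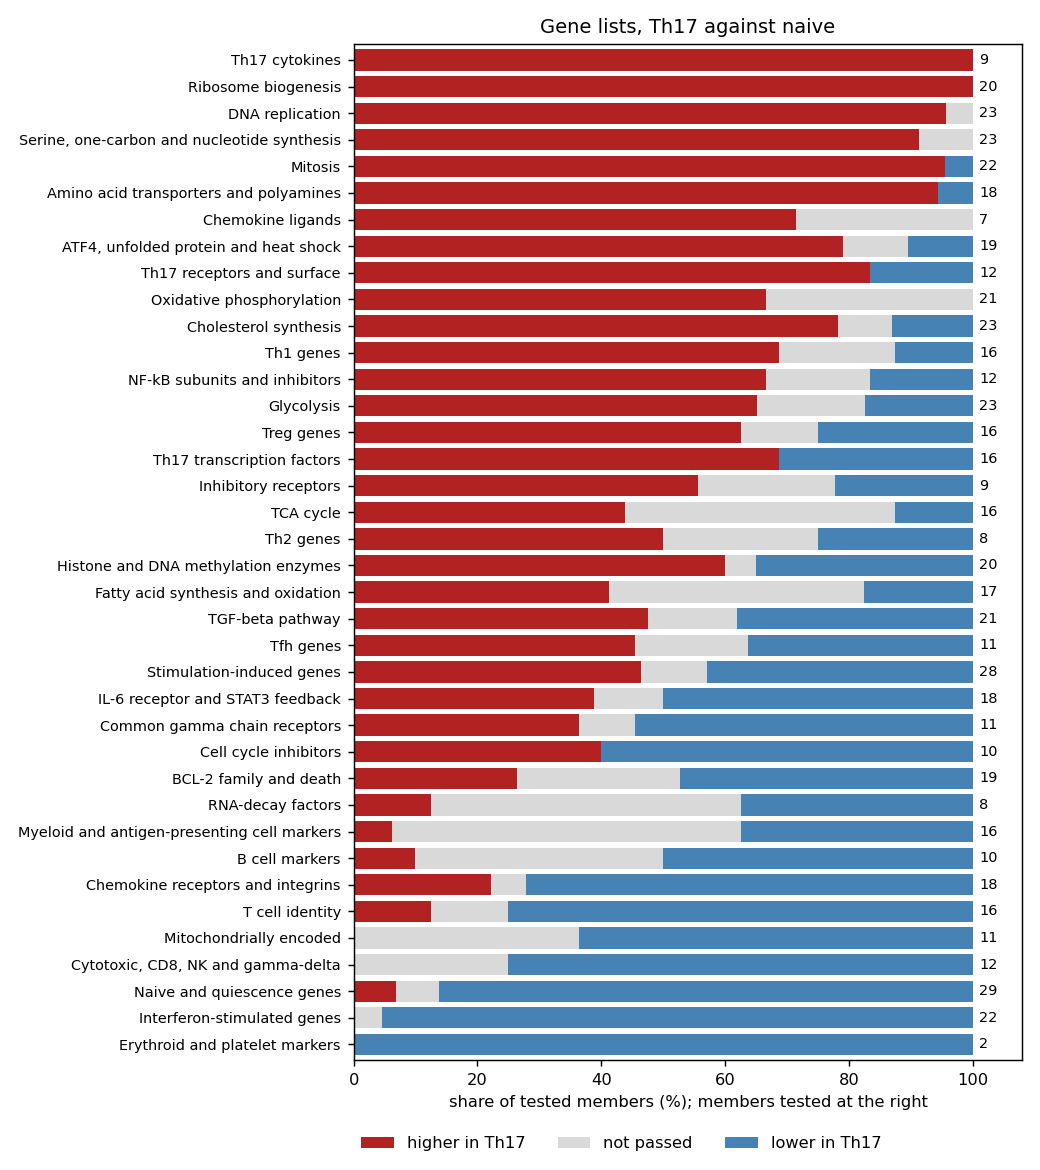
For each of 38 gene lists, the share of tested members that were higher (red), did not pass (grey) or were lower (blue) in Th17 against naive cells, with the number tested at the right, ordered by the difference of the shares. Th17 cytokines and ribosome biogenesis stand at 100% higher, interferon-stimulated and naive genes near the bottom.

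The 12 largest fitted increases under the naming rule all had no count in either naive library, and 10 of them lie outside the Th17 lists. A fitted change is not a bound where a group had no count, so this order is not one of true size. Genes with a few naive counts, such as Il17f (12.66 ± 0.47) and Col4a1 (12.51 ± 0.50), rank below the set. Col4a2, a basement membrane collagen, had 248 and 182 CPM in Th17 cells, against 0 and 0 CPM in naive cells and was at least 3186-fold higher, Gja1, the gap junction protein connexin 43, had 142 and 139.5 CPM in Th17 cells, against 0 and 0 CPM in naive cells (at least 2067-fold), and Thbs1, an activator of latent TGF-beta, 42.2 and 36.0 CPM in Th17 cells, against 0 and 0 CPM in naive cells. Spp1, the secreted protein osteopontin, had 132 and 130.3 CPM in Th17 cells, against 0 and 0 CPM in naive cells (at least 1925-fold). Of 20 tested collagen and laminin genes, grouped after their values were seen, 13 were higher and 6 lower, against 36.8% and 33.5% of all genes. Lamc1, a laminin chain, was higher (417 and 370.1 CPM in Th17 cells, against 2.49 and 1.82 CPM in naive cells), and the collagen gene Col11a2 was lower (11.8 and 13.2 CPM in Th17 cells, against 118 and 69.3 CPM in naive cells). Foxf2 (93.2 and 84.0 CPM in Th17 cells) and Vax2 (59.1 and 61.9 CPM) are transcription factors of development, Dlg2 (129 and 125 CPM) is a synaptic scaffold, and Nek6 (100.1 and 103 CPM) a mitotic kinase. Galnt14 (40.0 and 39.9 CPM) and Upp1 (37.9 and 36.6 CPM), an enzyme of uridine breakdown, complete the set. The 12 largest fitted decreases have the same limit, and genes with counts in both Th17 libraries, such as Tet1 (-10.96 ± 0.39) and Klf2 (-10.03 ± 0.18), rank below them. They include, beside the HIN-200 genes, the interferon-responsive genes Rtp4 (33.4 and 22.2 CPM in naive cells and none in Th17 cells), Oas2 (0 and 0.0263 CPM in Th17 cells, against 101 and 72.6 CPM in naive cells) and Ddx60 (0.0238 and 0 CPM in Th17 cells, against 52.2 and 63.0 CPM in naive cells). Nod1, a sensor of bacterial cell wall, had 0 and 0 CPM in Th17 cells, against 47.0 and 71.1 CPM in naive cells and was at least 1598-fold lower. Slc16a5 (65.1 and 83.0 CPM in naive cells), Abcg3 (33.1 and 35.04 CPM), Emid1 (18.6 and 16.6 CPM) and the ICOS ligand gene Icosl (12.9 and 13.9 CPM) had no count in Th17 cells.

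Among long non-coding and miRNA host transcripts, Mir155hg, the host of miR-155, had 77.9 and 66.9 CPM in Th17 cells, against 0.391 and 0.381 CPM in naive cells (7.54 ± 0.39, edgeR adjusted p = 2.61e-08). Of the 4 miRNA host transcripts tested, Mir17hg (52.1 and 44.7 CPM in Th17 cells, against 34.4 and 14.9 CPM in naive cells) and Mir22hg (11.6 and 10.1 CPM in Th17 cells, against 4.69 and 1.74 CPM in naive cells) also rose and Mir142hg fell (25.9 and 26.0 CPM in Th17 cells, against 33.6 and 37.8 CPM in naive cells). The calls of Mir17hg and Mir142hg were lost without naive library 2 and without Th17 library 1. The mature miRNAs were not measured here, since the counts are of host transcripts. The mature sequences encoded by these hosts are given to show what each transcript carries, with the seed, bases 2 to 8, in capitals (RefSeq, GRCm38.p6).
miR-155-5p: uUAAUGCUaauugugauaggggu
miR-17-5p: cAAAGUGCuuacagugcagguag
miR-20a-5p: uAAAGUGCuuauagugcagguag
miR-22-3p: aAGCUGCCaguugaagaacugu
miR-142a-3p: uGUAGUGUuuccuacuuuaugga
They lie at chr16:84714143-84714165, chr14:115043684-115043706, chr14:115044183-115044205, chr11:75463772-75463793 and chr11:87756903-87756925, all on the plus strand. MiR-17 and miR-20a, both from Mir17hg, share the seed AAAGUGC, and the seeds of the other three differ from it and from each other. Haglr, a transcript at the Hoxd locus, had 5.05 and 4.19 CPM in Th17 cells, against 0 and 0 CPM in naive cells. Map2k3os (8.79 and 8.01 CPM in Th17 cells, against 1.66 and 0.678 CPM in naive cells), Rab26os (3.29 and 3.87 CPM in Th17 cells, against 0.587 and 0.551 CPM in naive cells) and Sptbn5 (4.22 and 3.90 CPM in Th17 cells, against 0.293 and 0.466 CPM in naive cells) rose at low levels. Sptbn5 carries the name of a spectrin gene and stands here only by its class in the annotation. The largest falls were in Mirt1 (0.286 and 0.0263 CPM in Th17 cells, against 34.9 and 58.0 CPM in naive cells), BC106179 (0.0715 and 0.0790 CPM in Th17 cells, against 11.4 and 24.1 CPM in naive cells), BC043934 (0.214 and 0.316 CPM in Th17 cells, against 16.6 and 22.6 CPM in naive cells), Lncpint (0.143 and 0.395 CPM in Th17 cells, against 5.67 and 4.15 CPM in naive cells) and Galnt6os (0.715 and 0.817 CPM in Th17 cells, against 8.55 and 11.7 CPM in naive cells). Antisense transcripts such as the last are uncertain, because the sources used here do not give the strand setting.

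Markers of other cells were found in both groups at low summed levels, apart from the B cell list in naive cells. The counts of these lists stand against 33.5% of all genes lower and 36.8% higher. The 14 genes of CD8, NK, gamma-delta and cytotoxic cells summed to between 9.22 and 13.9 CPM in Th17 cells, against between 84.99 and 90.4 CPM in naive cells, and 9 of 12 tested were lower. Prf1, the perforin gene, had 0.310 and 1.24 CPM in Th17 cells, against 50.3 and 36.0 CPM in naive cells. The CD8 genes differed, as Cd8a was near 0 in both groups and Cd8b1 had 2.67 and 3.00 CPM in Th17 cells, against 17.6 and 14.4 CPM in naive cells. Klrd1 had 4.86 and 5.22 CPM in Th17 cells, against 16.2 and 21.2 CPM in naive cells. The 11 B cell markers summed to between 9.43 and 11.4 CPM in Th17 cells, against 446 and 462 CPM in naive cells, and nearly all of the naive sum was Ighm (6.24 and 3.79 CPM in Th17 cells, against 457 and 433 CPM in naive cells). Of 10 B cell genes tested 5 were lower and 1 higher. The defining B cell gene Cd79a had 0.310 and 0.158 CPM in Th17 cells, against 2.30 and 2.67 CPM in naive cells. Ms4a1 had 0 and 0 CPM in Th17 cells, against 0 and 0.763 CPM in naive cells, and its call was lost without naive library 2 and without either Th17 library. Ebf1, a factor of early B cells that other tissues use as well, was the higher gene (4.48 and 4.61 CPM in Th17 cells, against 0.0489 and 0.0847 CPM in naive cells). Myeloid and antigen-presenting cell markers summed to between 27.8 and 53.5 CPM in Th17 cells, against between 39.6 and 51.2 CPM in naive cells. Of 16 tested 6 were lower, or 3 without naive library 2, and 1 was higher. Lyz2 differed between the Th17 libraries more than between the groups (18.4 and 0.474 CPM in Th17 cells, against 5.77 and 1.95 CPM in naive cells). The part of such cells in the results was not tested. In these bulk samples, fewer cells of a type and less RNA per cell cannot be told apart.

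The same comparison in Il6ra-deficient cells (2 libraries labelled as Th17 and 2 as naive) served to ask whether the culture change depends on the receptor gene. The Il6ra counts do not check that label, since the deficient libraries had 32.3 and 31.8 CPM in Th17 cells and 199 and 213 CPM in naive cells, and the deleted part is not given. In these cells 10740 genes passed, 5604 higher and 5136 lower. Of the calls 9537 were shared in the same direction, 90.9% of those in wild-type and 88.8% of those in deficient cells, and 3 genes passed in opposite directions. The difference between the genotypes' changes was called for no gene by edgeR (0%), with a smallest adjusted p of 0.417, although 1267 genes had an unadjusted p under 0.05. DESeq2 called 51, among them Socs3. The count also moved with single libraries and with the filter. It was 271 with no filter on low counts, 392 without wild-type naive library 2 and 1 without wild-type naive library 1. In simulated counts with this design the same test recovered 54% of 2-fold and 95% of 4-fold differences, so smaller differences would often be missed. The simulation gave all genes the same spread and set changes only in genes above a minimum mean count. The real libraries were unequal in spread, so these shares may be too high for them. Among field genes the change of Socs3 was -3.50 ± 0.24 in wild-type and -2.10 ± 0.23 in deficient cells (difference -1.40 ± 0.32, edgeR unadjusted p = 0.00118, adjusted 0.515), with deficient naive libraries at 121 and 118 CPM against 369 and 199 CPM in wild-type naive cells. Il17a, by contrast, had 1714 and 2815 CPM in deficient Th17 cells and 0 and 0.157 CPM in deficient naive cells, and Il6st changed by -3.27 ± 0.16 there, close to its change in wild type (difference 0.06 ± 0.21).

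**Figure D5:**
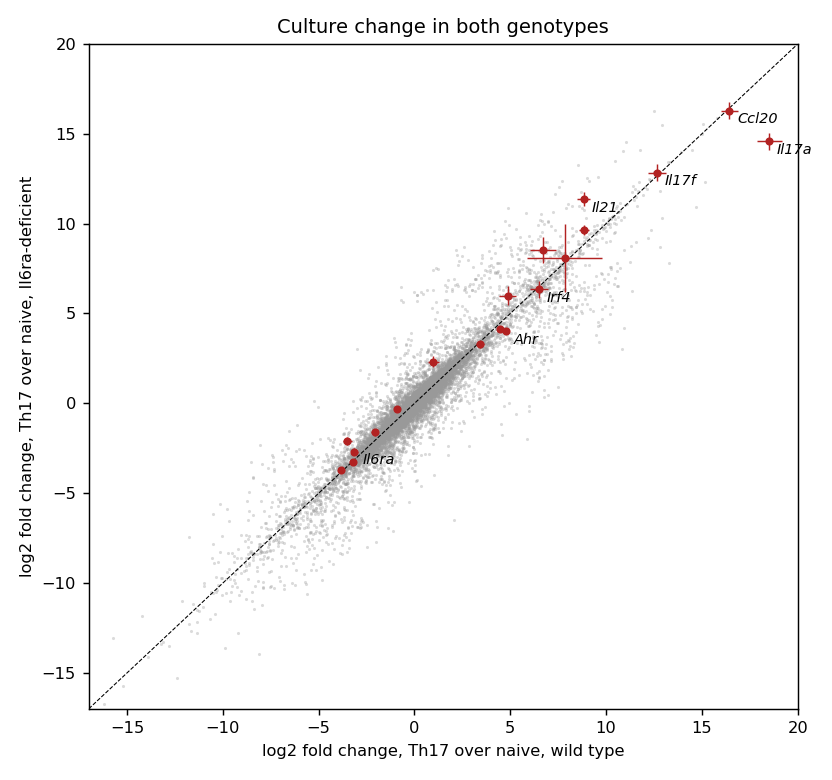
Log2 fold change of Th17 over naive cells in wild-type cells (x axis) and in Il6ra-deficient cells (y axis) for 14926 genes (grey), with 19 genes of Th17 cells and IL-6 signalling in red with bars of 1 SE, and a dashed line of equal change. Points far from 0 are fitted values of genes with few or no counts in a group, and the difference between genotypes passed for none of the 19.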

How the data were processed

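RNA-seq counts per gene were deposited by the authors as whole-number HTSeq counts for each library. The tools named, per the submitters' processing notes, are R 3.4.3, DESeq2 1.18.1, HTSeq 0.7.2, STAR 2.5.3 and SAMtools 0.1.18, with the GRCm38 build, and the library kit and strand setting are not given in the sources used here. Among 39179 gene IDs, 37693 had a name in GENCODE M21, and 5 summary lines were kept out of library sizes and tests. The no-feature lines held 22.29% and 23.49% of uniquely mapped reads in the Th17 libraries, against 28.25% and 31.1% in the naive libraries. Genes were filtered with filterByExpr, scaled by TMM and tested with edgeR 4.0.16 in R 4.3.3 (quasi-likelihood F test, Benjamini-Hochberg adjustment over 14926 genes, threshold 0.05), with group as the model over the 10 culture libraries. Named genes were the 21 field genes, the 12 largest fitted changes each way, the 10 highest in each group, the 5 largest fitted long non-coding changes each way, and list members. Of lists over 16 genes these were the 4 largest changes each way, the 2 with the highest CPM and those against the majority, and other members and families are named after their values were seen. Some members are not reported here, and 19 of the 21 field genes are plotted. The members and lists were chosen with earlier results of these data known. A permutation test of 2 against 2 libraries cannot give p below 0.333, so no such test was made. Bounds use 3 counts over a group as the floor and cover counting error only. In simulated counts for the Th17 comparison over 14355 genes, 85% of the 2-fold and 99% of the 4-fold changes were called by edgeR. The edgeR test against a 2-fold minimum called 0% and 88% of them. Only 200 genes above a minimum mean count were changed, and all genes had the same spread. The real comparison called far more genes and its libraries were unequal in spread, so these shares may be too high for it. Deviations of libraries with the same replicate number were nearly uncorrelated between the compared groups (correlation 0.0338). With 2 libraries a group this cannot show whether the libraries were paired. Among the other pairs of culture groups this correlation reached 0.267 (wild-type and deficient naive cells) and -0.247 (wild-type cells with IL-6 and deficient Th17 cells). Promoter and miRNA sequences are from RefSeq (GRCm38.p6). Alternatives were DESeq2 1.42.0, other scalings and filters, a 2-fold minimum, the compared groups alone, the replicate block and leaving out each library.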

Additional observations from a re-analysis of the deposited data

How the results depend on the processing

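The count of 10489 changed genes lay between 8214 and 10635 under other scalings, filters and DESeq2, and at 9680 with the compared groups only. With a 2-fold minimum it was 5330 (2805 higher and 2525 lower). Leaving out 1 library gave between 9130 and 10185 genes, 4902 to 5407 higher and 4210 to 4778 lower. The genotype difference, called for no gene by edgeR, was called for 271 genes with no filter and 51 with DESeq2, and for 0 to 392 when 1 library was left out (1267 genes had an unadjusted p under 0.05). The cause was not tested. With the replicate number as a block 10335 genes passed, 10286 of them shared with the fit without it. Whether the numbers pair the compared libraries is not known. Leaving out naive library 1 or 2 moved the log2 change of Bcl3 to 0.15 or -1.63, of Bcl6 to 0.32 or -0.53, and of Ms4a1 to -7.67 or 0, with the cause not tested. Among the 21 field genes Stat3 and Batf did not pass the 2-fold minimum. With 2 libraries a group, depth between 21299136 and 41184982 counts and unequal naive libraries, genes of few counts are least precise.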
